A study of Mus musculus with 6 samples.

Results

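Of 45 listed autophagy genes, 44 were measured among 18193 genes in 393P mouse lung tumour cells that carried a vector with a short hairpin RNA (shRNA) against MKK4 or a control vector. Members were taken by symbol from probe sets annotated to exactly 1 gene, and the probe set brightest on average over the 6 arrays stood for its gene; Optn was not analysed here. The groups were 393P-shZ, in which MKK4 was depleted (3 arrays), and 393P-scr, with a scrambled control (3 arrays), and the labels call each set triplicate cultures. Each group is 1 cell population, so the p-values cover culture-to-culture spread, which may be technical. The line was grown as a mass population from a primary lung tumour of a p53R172H∆g/+ K-rasLA1/+ mouse, so both groups share the mutant p53 and activated K-ras alleles. The labels give both retroviral infection and Lipofectamine transfection as the way the vector was delivered. MKK4, the product of Map2k4, is a kinase that switches on JNK and also p38, and the comparison asks which transcripts differ when it is depleted.

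Macroautophagy encloses cytoplasm in a double membrane that fuses with the lysosome. The ULK kinase complex starts the process, a class III PI3-kinase complex built on Beclin 1 marks the membrane with a lipid, 2 ubiquitin-like conjugation systems attach proteins of the ATG8 family (LC3 and GABARAP) to it, receptors such as p62 bring cargo, and tethers and SNARE proteins join the finished vesicle to the lysosome. JNK, which MKK4 activates, is known to phosphorylate BCL2 and thereby free Beclin 1 in starved cells. Autophagy is controlled largely by protein modification and turnover, so a transcript level is not a measure of autophagic flux.

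The target of the shRNA was lower in every 393P-shZ culture. Map2k4 gave 240, 295 and 287 intensity units with the shRNA, against 700, 638 and 597 units with the control vector, a log2 change of -1.21 (SE 0.079, limma adjusted p = 0.000126, exact two-sided permutation p = 0.1, the smallest that 3 against 3 allows). Array medians lay between 92.0 and 95.8 units, and the arrays correlated at 0.991 to 0.996 across genes. All 8 epithelial markers listed (Epcam, Cdh1, Krt8, Krt18, Krt19, Cldn4, Cldn7 and Esrp1) were well above the bacterial trpnX control probe sets, which reached 39.5 units at most. Within them Epcam (-0.35), Esrp1 (-0.25), Cdh1 (-0.14) and Cldn7 (-0.13) were lower and Krt19 (0.23) higher with the shRNA on the log2 scale, and the summed level was 48956 to 50184 units with the shRNA, against 50138 to 50752 units in control cultures; the part of this in the autophagy results was not tested. Of 7 leukocyte markers 3 stayed within that background in both groups, of 7 endothelial markers 4 and of 8 fibroblast markers 3, and 0 of these 22 markers passed the limma test (1, a fibroblast marker, at an unadjusted p under 0.05). Their summed levels overlapped between the groups: 1063 to 1275 units with the shRNA against 1147 to 1229 in control cultures for leukocyte markers, 518 to 677 against 572 to 716 for endothelial markers, and 487 to 566 against 503 to 550 for fibroblast markers. The leukocyte sum was mostly Csf1r (725 units with the shRNA, 771 in control cultures) and the endothelial sum mostly Kdr (345 and 394). These 2 sums therefore say little about the other markers. An array of a whole culture cannot tell a change in every cell from a change in the share of cells that carry a transcript.

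Among the 44 autophagy genes 6 were higher and 3 lower with MKK4 shRNA, and 35 did not pass the test (limma over all genes, Benjamini-Hochberg adjusted p under 0.05). Sqstm1, Ulk2 and Atg10 had the largest rises, 1.57-fold, 1.43-fold and 1.41-fold, and these were the only members called in all 16 alternative settings of the processing. The other calls, Becn1, Uvrag and Atg3 higher and Map1lc3a, Tax1bp1 and Vps39 lower, were changes of at most 1.21-fold and passed in 3 to 8 of the 16. The calls made up 20.5% of the members, against 11.8% of all genes, 6.39% higher and 5.39% lower. With the values as deposited, or centred on array medians, 4 members were higher and 1 lower. Brighter genes were called more often: without the dimmer genes, those under 196 units, 12 of 39 members were called, 30.8%, against 28.9% of the genes left, so the members' share lay near that of all genes left.

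Most members changed little. The median log2 change of the 44 members was 0.05 and that of all genes -0.01, the median size of change was 0.13 against 0.10, and 27 members had a positive and 17 a negative change. Relative to each gene's mean over the arrays, the members' median lay at 0.03, 0.02 and 0.03 on the 3 shRNA arrays, against -0.04, -0.01 and 0.01 on the control arrays. After normalization the groups did not overlap in 16 members that were above and 8 that were below with the shRNA; over all genes 14.6% lay above and 14% below. Without the dimmer genes, 22 of 39 members (56.4%) had groups that did not overlap, against 42.2% of those genes. The heat map of all members by array is drawn from the deposited values, on which the separation differs from these counts in 5 members. On it the separation is strong in 3 rows and weak in the rest.

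**Figure D1:**
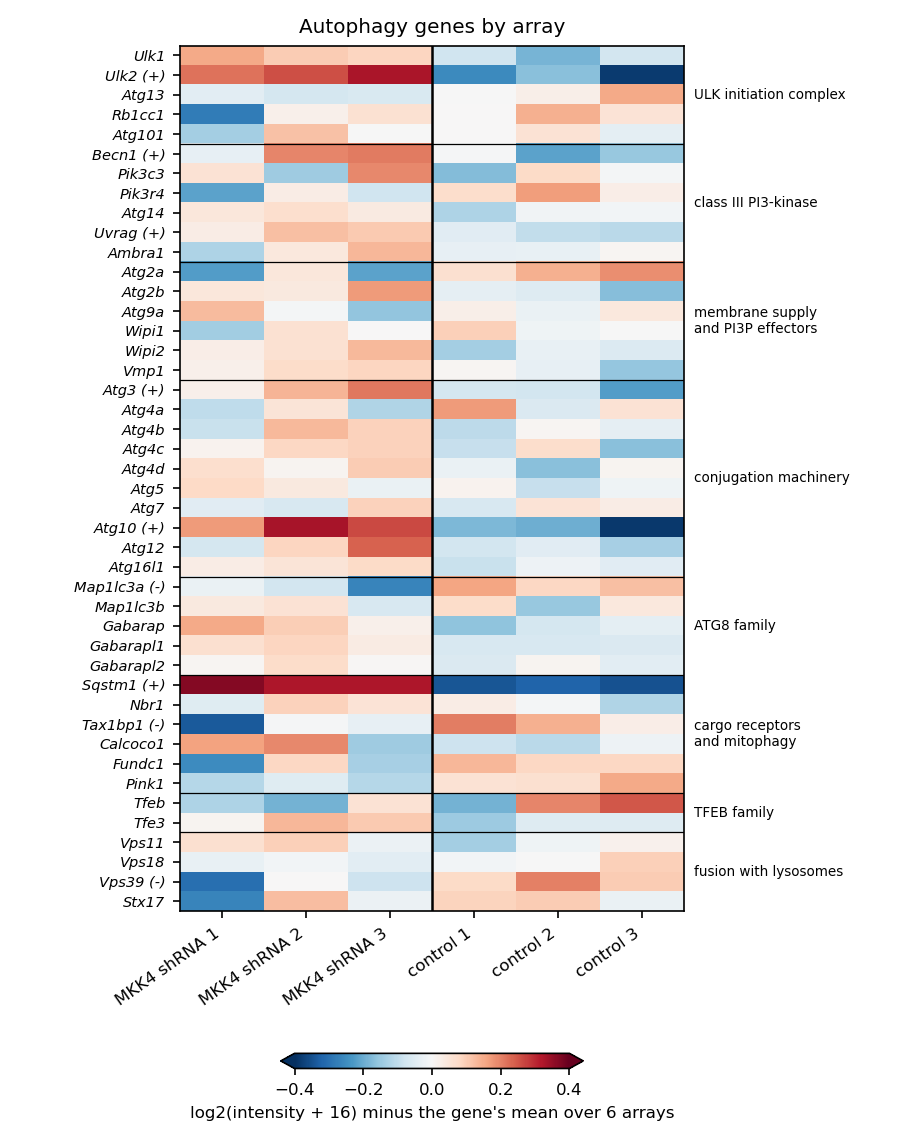
Deviation of log2(deposited intensity + 16), without quantile normalization, from the gene's mean over the 6 arrays. Rows are the 44 autophagy genes, grouped by role, and columns 3 MKK4 shRNA and 3 control arrays. Red is above and blue below the mean, and colours end at 0.4 either way. The signs (+) and (-) mark the 6 genes called higher and the 3 called lower. Sqstm1, Ulk2 and Atg10 are red in all 3 shRNA columns and blue in all 3 control columns.

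Promoter sequence is shown for Sqstm1, the member with the largest change, and for Atg3, the called member whose promoter held a motif searched for. TFEB and TFE3, which drive many autophagy and lysosome genes, bind a motif with the core CACGTG, and AP-1, the factor that JNK acts on, binds TGANTCA. Both strands of the 300 bases from 250 before to 50 after the start (RefSeq, GRCm38.p6, the first start listed per gene) were searched, and capitals mark CACGTG.
Sqstm1, chr11:50210771-50211070, minus strand: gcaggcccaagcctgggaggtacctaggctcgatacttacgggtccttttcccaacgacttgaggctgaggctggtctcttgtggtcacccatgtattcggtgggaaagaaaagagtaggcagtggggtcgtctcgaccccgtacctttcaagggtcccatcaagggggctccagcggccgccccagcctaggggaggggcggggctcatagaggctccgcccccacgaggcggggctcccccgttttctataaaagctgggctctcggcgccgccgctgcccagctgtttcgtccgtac
Atg3, chr16:45158579-45158878, plus strand: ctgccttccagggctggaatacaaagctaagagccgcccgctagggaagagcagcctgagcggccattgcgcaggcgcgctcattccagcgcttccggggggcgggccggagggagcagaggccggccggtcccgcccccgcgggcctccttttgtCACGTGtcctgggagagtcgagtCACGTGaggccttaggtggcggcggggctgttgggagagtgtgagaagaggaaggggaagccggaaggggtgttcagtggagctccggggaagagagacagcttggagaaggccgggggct
The Atg3 window holds CACGTG at 2 places, and the Sqstm1 window holds none. Of 36 members with a promoter in the table, 4 held CACGTG (Atg3, Atg5, Atg7 and Atg14), 11.1%, against 9.02% of 14452 promoters of measured genes; with 1 more base, TCACGTG, which contains the shorter core, 3 members (8.33%) and 5.12% of all. No member promoter held TGANTCA, which 6.33% of all promoters did. Of these 4 genes only Atg3 was called, and of the called members Sqstm1, Ulk2, Atg10, Uvrag and Tax1bp1 had a promoter in the table without any of the motifs.

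Cargo receptors held the clearest change. Sqstm1 encodes p62, which binds ubiquitinated cargo and LC3 and is itself degraded by autophagy. It gave 4304, 4178 and 4176 units with MKK4 shRNA, against 2628, 2665 and 2614 units with the control vector. The groups stood far apart, with 4220 ± 73.4 units against 2636 ± 26.5 (SD, n = 3 each) and a range within the groups of 128 and 51.2 units. The log2 change was 0.65 (SE 0.033, 95% interval 0.57 to 0.72, limma adjusted p = 3.75e-05). A second Sqstm1 probe set, near background at 55.5 units with the shRNA and 49.2 in control cultures, gave 0.13 and did not pass, and averaging both lowered the change to 0.39, still called. Sqstm1 lies on chromosome 11, where the median gene changed by 0.06.

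Other receptors did not share this rise. Tax1bp1, which encodes a ubiquitin-binding receptor that also binds p62 bodies, gave 791, 999 and 979 units in shRNA cultures, against 1158, 1106 and 1019 units in control cultures. Every shRNA array lay below every control array, though shRNA array 2 and control array 3 lay only 1.02-fold apart, and the fall of 0.26 on the log2 scale (SE 0.067) passed at limma adjusted p = 0.043. The call was lost on leaving out any 1 of the 6 arrays (adjusted p = 0.0653 to 0.142), and it passed in 3 of 16 settings. Its other probe sets above background gave -0.22 and -0.32, neither called. Nbr1, a relative of p62 with the same ubiquitin and LC3 binding, changed by 0.05 with a 95% interval of -0.04 to 0.14, and Calcoco1, a receptor for endoplasmic reticulum and Golgi, by 0.12 (-0.09 to 0.33); neither passed.

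Of the mitophagy genes neither was called. Fundc1, a receptor in the outer mitochondrial membrane, gave 504, 639 and 549 units with the shRNA, against 663, 640 and 640 units with the control vector, a log2 change of -0.22 (limma adjusted p = 0.0548). Its second shRNA array lay 0.28 units below the lowest control array, and without that array the change was -0.28 and passed (adjusted p = 0.0253). That array was the shRNA array nearest the controls, so leaving it out enlarges the fall. Over the 16 settings the change ran from -0.28 to -0.13 and passed in 3 (limma adjusted p = 0.0174 to 0.211). A second Fundc1 probe set of similar brightness, 584 units with the shRNA and 615 in control cultures, gave -0.11. Its groups overlapped and it did not pass, and a dimmer probe set gave -0.07. Pink1, the kinase that recruits parkin to damaged mitochondria, gave 190, 199 and 190 units in shRNA cultures, against 216, 217 and 232 units in control cultures, a log2 change of -0.19 (adjusted p = 0.12). A dimmer Pink1 probe set gave 0.02.

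**Figure D2:**
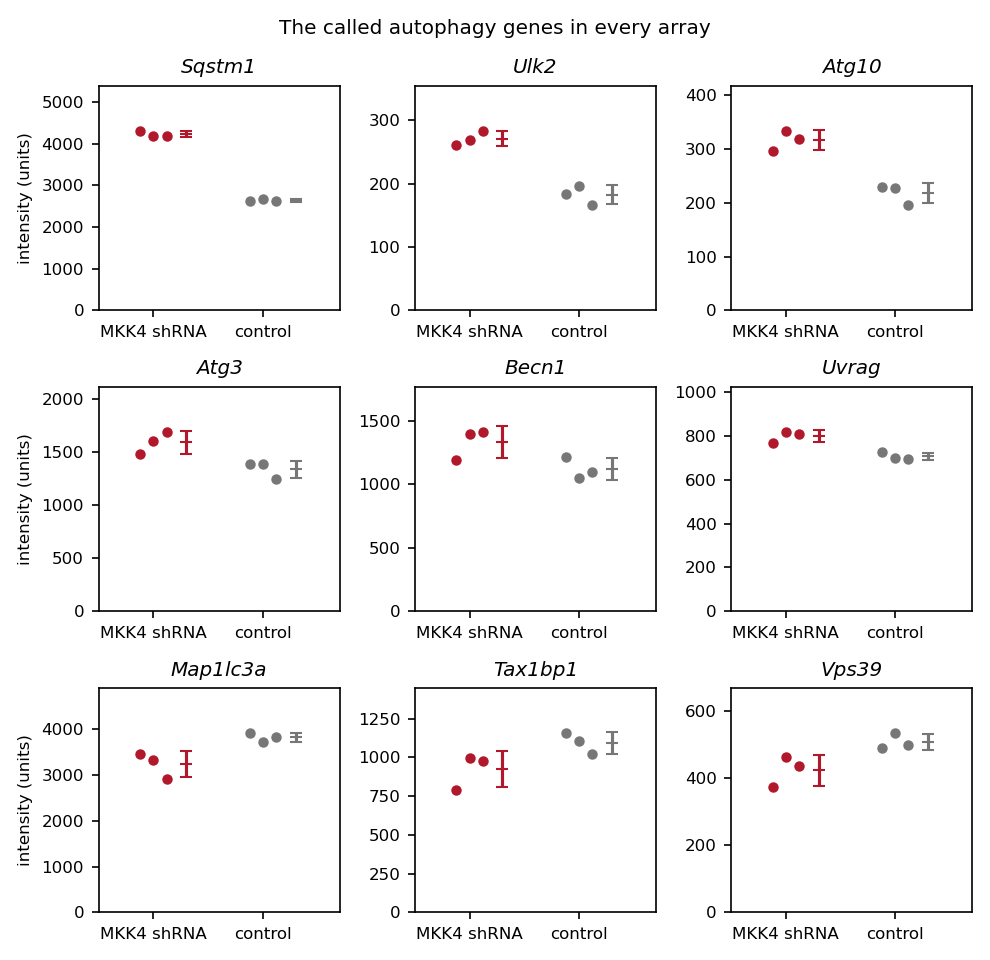
Deposited intensity (units, axis from 0) of the 9 called autophagy genes in each of 3 MKK4 shRNA arrays (red) and 3 control arrays (grey), with the mean and SD beside the points. Sqstm1 shows 4176 to 4304 units with the shRNA and 2614 to 2665 in control cultures, while the groups of Becn1 overlap.

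In the ULK complex, Ulk2 rose and its partners did not pass. Ulk2, one of the paired kinases that start autophagy when nutrients are short, gave 261, 269 and 283 units with MKK4 shRNA, against 184, 196 and 167 units with the control vector. The lowest shRNA array was 1.33-fold above the highest control array, and the log2 change was 0.52 (SE 0.08, limma adjusted p = 0.00512). Of the other Ulk2 probe sets one of similar brightness gave 0.43, with groups that did not overlap, but did not pass over all probe sets (adjusted p = 0.0537), and dimmer ones gave 0.23 and 0.02; averaging all lowered the change to 0.30, still called. Ulk2 lies on chromosome 11 with Map2k4.

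Its paralogue Ulk1 gave 550, 531 and 525 units in shRNA cultures, against 466, 432 and 468 units in control cultures. The groups did not overlap, and the log2 change of 0.21 (95% interval 0.07 to 0.35) came to a limma adjusted p of 0.0664. It passed in 2 of 16 settings, as deposited (0.0468) and without the dimmer genes (0.0244). The scaffold and adaptor genes Atg13 (-0.13), Rb1cc1, which encodes FIP200 (-0.15), and Atg101 (-0.03) had negative log2 changes whose intervals held 0, with adjusted p of 0.298, 0.321 and 0.896.

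The class III PI3-kinase genes gave 2 small rises among 6 (33.3%, against 11.8% of all genes and 28.9% without the dimmer genes). Becn1, the gene of Beclin 1, gave 1193, 1400 and 1414 units with the shRNA, against 1217, 1050 and 1099 units with the control vector. The groups overlapped as deposited, shRNA array 1 lying below control array 1, and separated after normalization, with a log2 change of 0.23 (SE 0.058, limma adjusted p = 0.0388). A second bright probe set gave 880 ± 80.0 units in shRNA cultures and 734 ± 24.5 in control cultures (SD, n = 3 each). Its change of 0.24 passed over all probe sets (0.0291), where the kept probe set did not pass (limma adjusted p = 0.0663). The Becn1 call was lost without control replicate 2 (0.128) or 3 (0.121), without shRNA replicate 2 (0.144) or 3 (0.142) and after chromosome centring (0.144), and averaging all its probe sets lowered the change to 0.08.

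Uvrag, whose product joins the Beclin 1 complex in vesicle maturation and endosomal traffic, gave 765, 817 and 807 units in shRNA cultures, against 725, 699 and 694 units in control cultures. The gap between the groups was 39.6 units, and the log2 change of 0.15 (SE 0.037) passed at limma adjusted p = 0.0369. Leaving out any 1 of the 6 arrays ended this call (0.0692 to 0.108). The lipid kinase gene Pik3c3 (0.06), its regulatory subunit Pik3r4 (-0.19), the autophagy-specific subunit Atg14 (0.08) and the Beclin 1 cofactor Ambra1 (0.02) did not pass, with adjusted p of 0.236 to 0.893. Pik3c3 and Beclin 1 work in 1 complex, and the 95% interval of Pik3c3, -0.19 to 0.31, includes the change of Becn1.

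Of 4 BCL2 relatives that can bind Beclin 1, Bcl2l2 was called higher (0.24) and Bcl2l1, the gene of BCL-XL, lower (-0.11). The share called was 50% of this short list, against 11.8% of all genes and 28.9% of the genes left without the dimmer ones. Averaging the probe sets turned Bcl2l2 to -0.01 (adjusted p = 0.954). The Bcl2l1 call was lost on leaving out any 1 array (0.0664 to 0.106).

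No gene of membrane supply was called on its kept probe set by limma. An unadjusted p under 0.05 was reached by 3 of 6, and by 4387 of all 18193 genes. The lipid transfer genes did not pass: Atg2a gave 163, 200 and 165 units with the shRNA, against 203, 215 and 222 units with the control vector (log2 -0.27, limma adjusted p = 0.0951), and Atg2b gave 505, 503 and 552 units, against 476, 471 and 433 units (0.15, 0.173). In both genes the groups did not overlap on the kept probe set. The other Atg2b probe sets above background gave -0.02 and -0.10, and averaging gave 0.01 (adjusted p = 0.957). The scramblase gene Atg9a (-0.04) and Wipi1 (-0.06), which encodes a reader of the lipid that the PI3-kinase makes, did not pass, and their 95% intervals (-0.24 to 0.16 and -0.15 to 0.03) held 0.

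Wipi2 and Vmp1 depended on the probe set. Wipi2, the reader that recruits the conjugation machinery, gave 1106 ± 41.0 units in shRNA cultures and 998 ± 39.2 in control cultures on its brightest probe set (SD, n = 3 each; log2 0.14, adjusted p = 0.151). Its next brightest gave 611 against 465 units, a log2 change of 0.36 that passed over all probe sets (limma adjusted p = 0.0348). Vmp1, a membrane protein of the endoplasmic reticulum needed for autophagosome formation, gave 0.09 on the kept probe set and 0.27 on a dimmer one (767 against 623 units, adjusted p = 0.0123 over all probe sets), and the mean of both passed at 0.18 (0.0184).

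Within the conjugation machinery, Atg10 and Atg3 rose, and 8 other genes did not pass (20% called, against 11.8% of all genes). Atg10, which encodes the E2-like enzyme that joins ATG12 to ATG5, gave 297, 334 and 318 units with MKK4 shRNA, against 230, 227 and 197 units with the control vector. The lowest shRNA array stood 1.29-fold above the highest control array. The log2 change was 0.49 (SE 0.076, 95% interval 0.32 to 0.67, limma adjusted p = 0.00518), from the single Atg10 probe set on the array. Atg10 lies on chromosome 13.

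Atg3, the E2-like enzyme that passes LC3 to its lipid, gave 1479, 1605 and 1691 units in shRNA cultures, against 1388, 1384 and 1248 units in control cultures. The log2 change was 0.24 (SE 0.049, limma adjusted p = 0.0168), with groups that did not overlap. It passed in 8 of 16 settings and was lost when control replicate 3 (0.0564), shRNA replicate 2 (0.059) or shRNA replicate 3 (0.0661) was left out. Averaging with a second probe set that read 1.08 units in shRNA and 1.00 in control cultures lowered it to 0.12.

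The partners of these enzymes did not pass. Atg7, the E1-like enzyme that serves both ATG3 and ATG10, changed by -0.03, with a 95% interval of -0.20 to 0.14. Atg5 gave 0.04, Atg12 0.14 and Atg16l1 0.09, and their products form the complex that directs LC3 to the membrane. Other probe sets gave 0.14 and 0.15 for Atg5 and 0.20 and 0.06 for Atg12, none of which passed. The protease genes that process LC3 and GABARAP gave -0.12 (Atg4a), 0.07 (Atg4b), 0.12 (Atg4c) and 0.11 (Atg4d), with adjusted p of 0.262 to 0.55. The Atg4a value rests on a probe set that can match several transcripts, and the other probe set of this gene gave 0.26, which did not pass either.

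**Figure D3:**
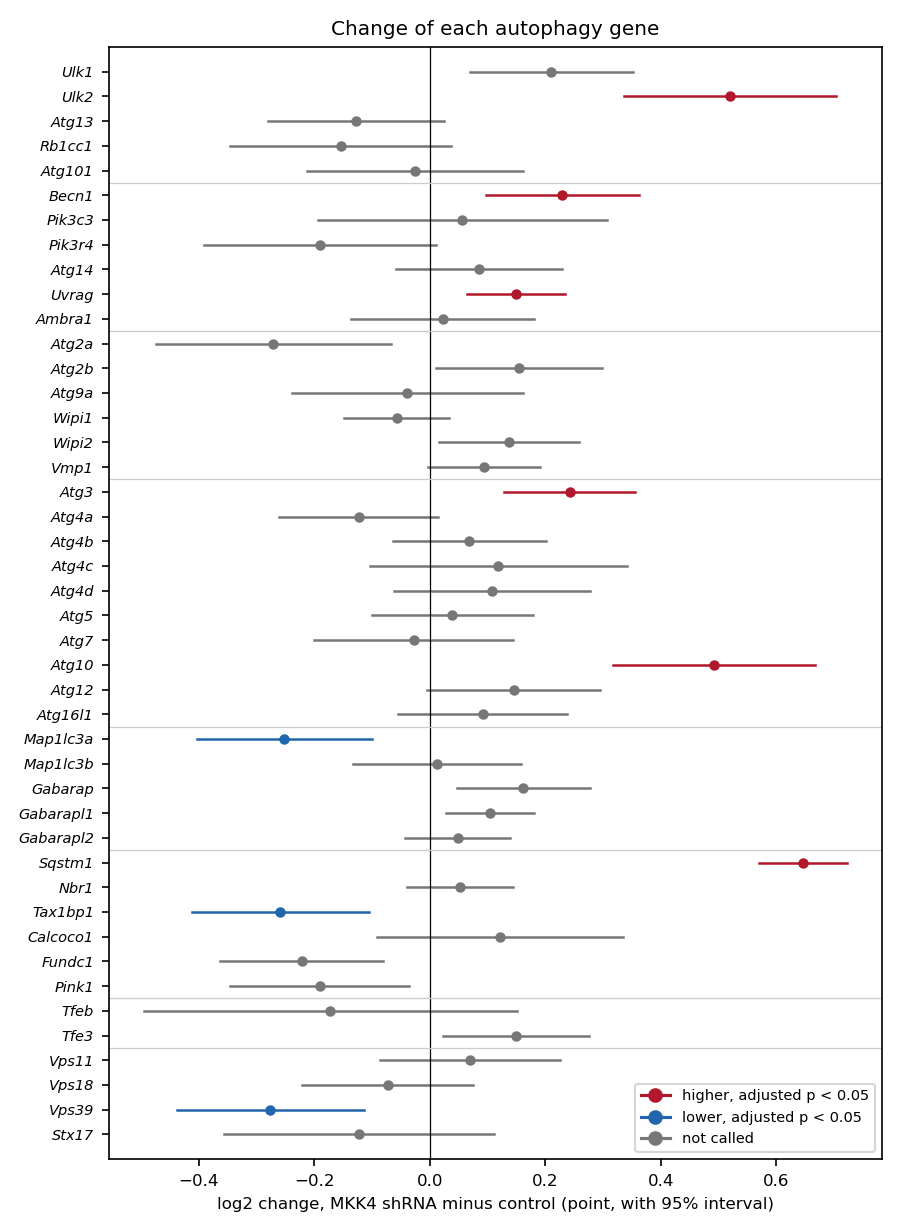
Log2 change, MKK4 shRNA minus control, of each of 44 autophagy genes (points) with its 95% interval from limma (bars), in the order of their roles; red marks genes called higher, blue genes called lower, grey those not called. The intervals of Sqstm1 (0.57 to 0.72), Ulk2 (0.34 to 0.70) and Atg10 (0.32 to 0.67) lie farthest from 0.

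The ATG8 family gave 1 call among 5 genes (20%, against 11.8% of all genes). Map1lc3a, an LC3 gene, gave 3455, 3343 and 2926 units with MKK4 shRNA, against 3925, 3725 and 3826 units with the control vector. All shRNA arrays lay below all control arrays, and the fall of 0.25 on the log2 scale (SE 0.066) passed at limma adjusted p = 0.0449. A dimmer Map1lc3a probe set gave 825 ± 40.9 units with the shRNA against 1006 ± 19.0 units with the control vector (SD, n = 3 each). Its change of -0.29 passed over all probe sets (0.034). The kept probe set, which can match several transcripts, did not pass in that test (limma adjusted p = 0.0794). The call on the kept probe set was lost without control replicate 1 (0.143), 2 (0.112) or 3 (0.133), without shRNA replicate 2 (0.12) or 3 (0.0577), and after chromosome centring (0.127).

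Map1lc3b, the LC3 gene most used as a marker of autophagosomes, gave 3288, 3331 and 3059 units in shRNA cultures, against 3366, 2876 and 3295 units in control cultures. Its groups overlapped, and the log2 change of 0.01 had a 95% interval of -0.13 to 0.16; its other probe sets above background gave 0.00 and 0.01. Gabarap gave 4471, 4303 and 4081 units, against 3597, 3829 and 3917 units (log2 0.16, limma adjusted p = 0.0798), and passed in 2 of 16 settings, centred on array medians (0.0435) and without the dimmer genes (0.017). Gabarapl1 changed by 0.10 on its kept probe set (0.0896) and by 0.17 on a dimmer one, which passed over all probe sets (0.0278), and Gabarapl2 by 0.05. The LC3 and GABARAP branches both function in autophagy, GABARAP proteins acting also late, at fusion.

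**Figure D4:**
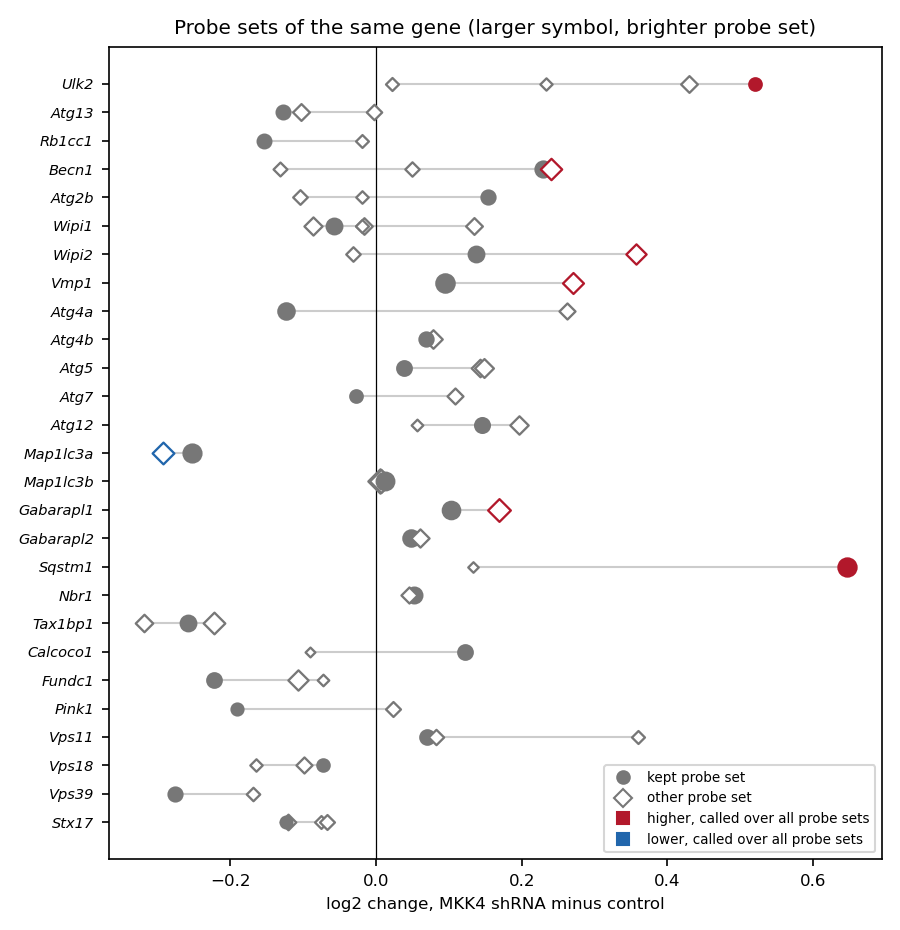
Log2 change, MKK4 shRNA minus control, of every probe set above background for members with more than 1 such probe set; filled circles are the kept probe sets, open diamonds the others, larger symbols brighter probe sets, and red or blue those called over all probe sets. Ulk2 spreads from 0.02 to 0.52 and Sqstm1 from 0.13 to 0.65, while the probe sets of Map1lc3b lie together at 0.

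Over all 106 probe sets of the members, 10 passed when every probe set was tested on its own, 9 higher and 1 lower, against 6.37% of all probe sets. Of these 10, 5 were probe sets that had not been kept, those of Becn1, Wipi2, Vmp1, Map1lc3a and Gabarapl1 given above. The kept probe sets of Becn1, Map1lc3a, Tax1bp1 and Vps39, called over genes, did not pass here (limma adjusted p = 0.0647 to 0.0794). Of the 62 probe sets not kept, 15 were within background in both groups. The plot of probe sets shows that those of Ulk2 and Sqstm1 lie far apart and those of Map1lc3b close together.

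The TFEB family gave no call. Tfeb, the master regulator of lysosome and autophagy genes, gave 1.77, 1.00 and 4.18 units in shRNA cultures, against 1.00, 6.19 and 6.99 units in control cultures. All these values lie within background, so no level or change can be given for it. Its relative Tfe3 gave 399, 436 and 427 units, against 356, 381 and 381 units, with groups that did not overlap and a log2 change of 0.15 (limma adjusted p = 0.134).

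At the step of fusion, 1 of 4 genes fell (25%, against 11.8% of all genes). Vps39, a subunit of the HOPS tether that docks autophagosomes and late endosomes with lysosomes, gave 372, 463 and 435 units with MKK4 shRNA, against 489, 534 and 497 units with the control vector. The groups did not overlap, and the fall of 0.28 on the log2 scale (SE 0.07) passed at limma adjusted p = 0.0409. Leaving out any 1 of the 6 arrays ended the call (0.0651 to 0.141), as did chromosome centring, with a change of -0.19 (0.132). Vps39 and Map1lc3a both lie on chromosome 2, where the median of 1399 genes changed by -0.07; the part of this shift in either fall was not tested.

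The other tether subunits Vps11 (0.07) and Vps18 (-0.07), which form the core shared with a related complex, and the autophagosomal SNARE gene Stx17 (-0.12) did not pass. Stx17 gave 165, 221 and 198 units with the shRNA, against 216, 218 and 198 units with the control vector, so its groups overlapped. All 4 of its probe sets gave negative values, -0.07 to -0.12.

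**Figure D5:**
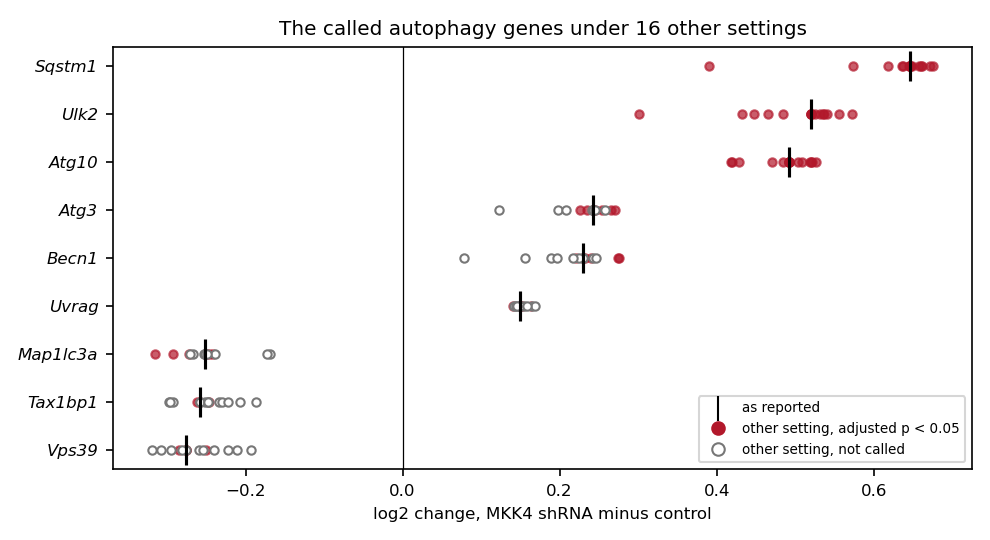
Log2 change, MKK4 shRNA minus control, of the 9 called autophagy genes as reported (black bars) and under 16 other settings of the processing (circles, filled red where adjusted p stayed under 0.05). Sqstm1, Ulk2 and Atg10 stay called throughout; Uvrag keeps its size, 0.14 to 0.17, but not its call.

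Genes outside the list were described by 4 further lists. The shares called below are set beside that of all genes, though brighter genes were called more often (28.9% without the dimmer genes). No share was taken for the brighter genes of these lists. Of 29 other autophagy genes 1 rose and 4 fell, 17.2% against 11.8% of all genes, with a median log2 change of 0.01. Atg9b, a paralogue of the scramblase gene Atg9a, fell to 793 ± 65.1 units with the shRNA, against 1053 ± 31.2 units with the control vector (log2 -0.42, limma adjusted p = 0.00365), though the mean of its probe sets did not pass (-0.19, 0.132). Ccpg1, a receptor for autophagy of the endoplasmic reticulum, fell by 0.41 on a probe set that can match several transcripts, and the best of its others gave -0.10 (0.652). The call of Ccpg1 was also lost on leaving out any control array (0.0647 to 0.0958) or shRNA replicate 2 (0.0652). Vps16, a subunit of the same tether core as Vps11 and Vps18, fell by 0.21, but gave -0.12 after chromosome centring (0.101). Retreg1, another receptor for the endoplasmic reticulum, named after its values were seen because it completes the count, fell by 0.13. Wdr45b, of the WIPI family, was the rise (0.17), lost without any of the arrays but shRNA replicate 2 (0.0658 to 0.129).

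Of 29 mTORC1 and AMPK genes, which set autophagy by nutrient and energy supply, 5 rose and 2 fell, with a median of 0.05. The share called was 24.1%, against 11.8% of all genes and 28.9% of the genes left without the dimmer ones. Flcn, a GTPase-activating protein for the Rag proteins, rose by 0.37 to 1063 ± 85.9 units, against 810 ± 16.9 units in control cultures (SD, n = 3 each; limma adjusted p = 0.00143). Ddit4, an inhibitor of mTORC1 induced by stress, rose by 0.35 to 4501 ± 265 units, against 3463 ± 63.3 units (0.00144). Deptor, a subunit that restrains mTOR, fell by 0.36 (0.00476), and Rptor, the scaffold of mTORC1, rose by 0.25 (0.0304). Flcn and Ddit4 passed in all 16 settings. The mean of the Deptor probe sets gave -0.20 (0.0624), and the call of Rptor was lost on leaving out any shRNA array (0.0533 to 0.0943), control replicate 1 (0.095) or control replicate 3 (0.102).

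Of 33 lysosomal genes 4 rose, 12.1% against 11.8% of all genes, with a median of 0.02. Scarb2, a lysosomal membrane protein that carries glucocerebrosidase, stood out with 1542 ± 25.9 units with the shRNA, against 665 ± 33.3 units with the control vector (SD, n = 3 each), a log2 change of 1.18 (adjusted p = 9.29e-06). Gusb (0.34), Lamp2 (0.24), which encodes a major lysosomal membrane glycoprotein, and the proton pump accessory gene Atp6ap2 (0.22) were the others. The call of Gusb was lost on leaving out any control array (0.0587 to 0.115), shRNA replicate 2 (0.131) or shRNA replicate 3 (0.122), and that of Lamp2 without shRNA replicate 2 (0.055).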

How the data were processed

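Per the labels' protocols, biotin-labelled RNA of 6 cultures was measured on Affymetrix arrays with 1 colour. The authors deposited 1 linear intensity for each probe set and array; how probes were summarised and normalized is not stated in the labels or file headers. A pseudocount of 16 was added, log2 taken and quantile normalization applied (limma 3.58.1, R 4.3.3); fold changes carry this pseudocount and so are too small for dim genes. Of 45101 probe sets, 64 controls were left out of the tests, 34945 had 1 gene, 932 several and 9160 none listed. Symbols were updated through the Entrez number, and chromosomes are those of GRCm38.p6.

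The test was limma's moderated fit (lmFit, then eBayes with trend) of the shRNA against the control group over 18193 genes, without covariates, at a Benjamini-Hochberg adjusted p of 0.05. The test was checked on simulated data. Named were all members, Map2k4 and, from each other list, up to 4 called genes with the largest change. Members, lists and tests were chosen with earlier results of these data known. Alternatives were values as deposited, centred medians, pseudocounts of 1 and 64, no dimmer genes, averaged probe sets, dropping probe sets with suffixes for multiple transcripts, eBayes without trend, the replicate block, chromosome centring (the median deviation of each chromosome subtracted per array), every probe set, and each array left out. The number of arrays limits the precision. Optn and the listed genes absent from the annotation were not analysed here.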

Additional observations from a re-analysis of the deposited data

How the results depend on the processing

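Against 6 members higher and 3 lower, eBayes without trend gave 3 higher and 0 lower (7 lower at unadjusted p under 0.05 in limma). The replicate block gave 3 higher and 1 lower. Values as deposited and centred medians gave 4 and 1 each, chromosome centring and averaged probe sets 6 and 1 each. With every probe set tested, 9 were higher and 1 lower, but these count probe sets out of 106 and not members. Of these 10, 5 had not been kept. Leaving out each array gave 3 to 5 higher and 0 to 1 lower in limma; lower members numbered 0 without control replicate 1, 2 or 3 (7, 7 and 4 unadjusted) and without shRNA replicate 3 (6 unadjusted). Sqstm1, Ulk2 and Atg10 kept their call in all 16 settings. Of the 35 members not called, 11 changed sign in some setting, and no called member did. Bcl2l2 turned to -0.012 with averaged probe sets. The cause of these changes was not tested, except that leaving out an array leaves fewer samples.

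The members' median log2 change ran from 0.03 to 0.07, against -0.01 to 0.00 for all genes. Over all genes 2143 were called, and 1130 without a trend, 1211 with the replicate block, 1354 and 1328 without control replicate 2 and 3, and 1160 and 1254 without shRNA replicate 2 and 3. Across genes, deviations of same-numbered arrays correlated at r = -0.03, -0.01 and -0.11, against -0.09 to 0.13 for arrays with different numbers. With 3 arrays per group, this cannot tell whether same-numbered cultures were handled together. Map2k4 stayed called in all settings, at -1.28 to -1.09.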
